A study of Xenopus tropicalis with 6 samples.

Results

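The transcripts described here are 191 of the 28165 gene identifiers counted in Xenopus tropicalis blastulae, chosen by their measured fall after knockdown of Tet2 and Tet3. Xenopus tropicalis is the western clawed frog, and stage 9 is a late blastula. The tested embryos received 30 ng of Tet2 and 30 ng of Tet3 Morpholino at the one-cell stage, in 5 nl (3 libraries, here Tet2/Tet3 libraries). The control embryos received 60 ng of a standard control Morpholino in the same volume (3 libraries). Each library pooled the poly(A) RNA of 50 whole embryos, so it averages over all cell types of the blastula. In such bulk samples, fewer cells of a type and less RNA per cell cannot be told apart. The labels call the libraries biological triplicates, give no strain or genotype, and name no cell type.

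Morpholinos are modified antisense oligonucleotides. Those used here cover the start codon and block translation, so the mRNA level of a target does not report its knockdown. TET enzymes turn 5-methylcytosine in DNA into 5-hydroxymethylcytosine and further oxidised bases, a route to active removal of DNA methylation. The early frog embryo runs on mRNA that the egg laid down, and begins broad transcription of its own genome at the mid-blastula transition, shortly before stage 9. Poly(A) RNA of a stage 9 embryo is therefore a mixture of maternal and newly made transcripts.

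Levels are given in CPM, the read count of an identifier scaled to a common library total. Libraries with the same replicate number were taken as pairs. The 3 control libraries of a member averaged 10 CPM or more. Its ratio of Tet2/Tet3 to control CPM, with 0.1 CPM added to both, was at most 0.5 in each of the 3 pairs. The 100 identifiers most abundant in the controls were left out, and 8571 identifiers then reached the control level. The 191 members are 2.23% of these. Of the 100 left out, 0 would have met the ratio limit, and the one that came closest kept 70.6% of its control level in its weakest pair. The limits turned round (at least 10 CPM in the Tet2/Tet3 libraries, at least 2-fold higher in each pair) were met by 3 of 8341 identifiers. Here the 100 most abundant were not left out. Scaling by library total, described below, leaves the bulk of identifiers slightly lower in the Tet2/Tet3 libraries. The limits turned round were not applied with other scaling, so the part of scaling in their count was not tested.

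Gene names do not come with the identifiers in the files, and a search of RefSeq's gene table for assembly UCB_Xtro_10.0 found 0 of the 28165. Names, functions, positions and sequences of the members are therefore not given, and they are described by level, depth of the fall and rank. An identifier is printed only for the most abundant member and for the one that fell deepest. How multi-mapping reads were counted is not given in the sources used here, so members with near-identical copies may share or lose reads.

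In the Tet2/Tet3 embryos the members were reduced rather than absent. Their median level was 17.4, 11.9 and 13.2 CPM in Tet2/Tet3 replicates 1, 2 and 3, against 57.6, 43.7 and 47.6 CPM in control replicates 1, 2 and 3. All 3 Tet2/Tet3 medians lay below all 3 control medians. The lowest level of any member was 0.501 CPM, or 21 reads, and 1 member in each of Tet2/Tet3 replicates 1 and 2 was under 1 CPM. No member averaged under 1 CPM over the Tet2/Tet3 libraries, and 71 averaged under 10 CPM there. Together the members held 0.469 ± 0.0934% of the counts of a Tet2/Tet3 library and 1.504 ± 0.130% of a control library (mean ± SD, n = 3 each). These values follow from the choice and carry no test.

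**Figure D1:**
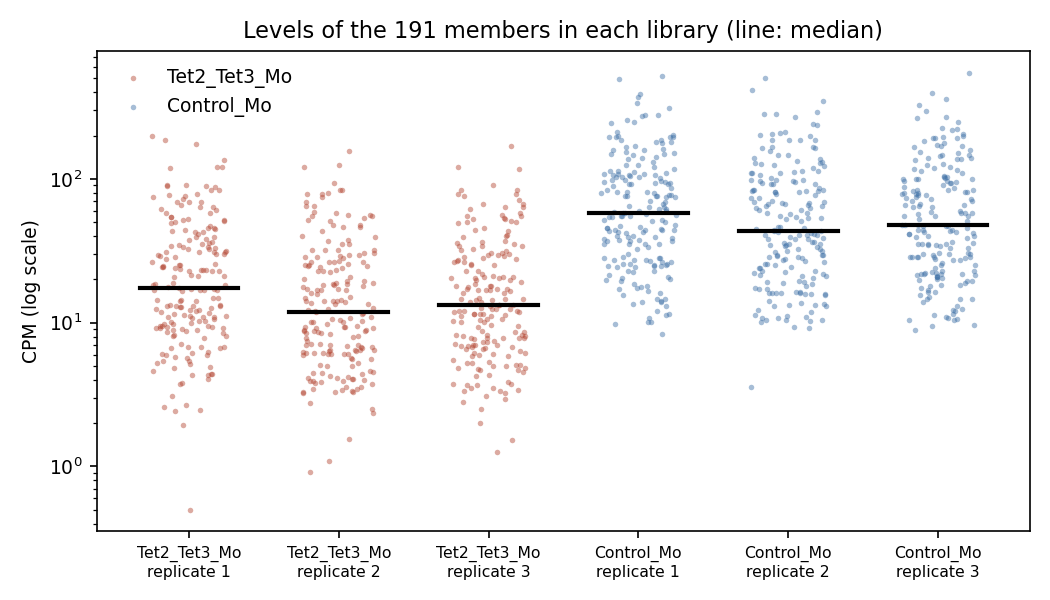
CPM of each of the 191 members (points, log axis) in the 3 Tet2_Tet3_Mo and 3 Control_Mo libraries, with the median as a line. The Tet2_Tet3_Mo medians are 11.9 to 17.4 CPM and the Control_Mo medians 43.7 to 57.6 CPM, and in both groups replicate 1 has the highest median and replicate 2 the lowest.

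The depth of the fall is given as the level left, the Tet2/Tet3 level as a percent of the control level of the same number, averaged over the 3 pairs on the log scale. The median level left was 32.8%, with quartiles of 25.03% and 39.1%, a lowest value of 2.34% and a highest of 47.3%. All 8571 identifiers at this control level kept a median of 92.7%. Only 4 members kept under 10%, 43 kept 10 to 25%, 106 kept 25 to 40% and 38 kept 40 to 50%. Most members were thus partly reduced, and near-complete loss was rare among them.

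The limits of the rule cut through a continuous range. In the weakest pair, the members nearest the limit kept 49.96% and 49.81%, and the identifiers just outside it 50.01% and 50.06%. Between 45 and 50% lay 52 members, and between 50 and 55% lay 78 identifiers that missed the rule. On the control level, the members nearest the limit averaged 10.2 and 10.3 CPM, and the identifiers just outside it with the same fall 9.59 and 9.49 CPM.

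The most abundant member was Xetro.D00259, with 186.1, 156.7 and 168.1 CPM in Tet2/Tet3 replicates 1, 2 and 3, against 518.7, 504.4 and 548.6 CPM in control replicates 1, 2 and 3. The groups do not overlap, and its levels were close to each other within each group. It averaged 170.3 ± 14.8 CPM in Tet2/Tet3 and 523.9 ± 22.5 CPM in control libraries (SD, n = 3 each). It was 2.79-, 3.22- and 3.26-fold lower in pairs 1, 2 and 3. The edgeR fit over all identifiers, which does not scale by library total alone, gave it a log2 fold change of -1.50 (SE 0.07). The rule used this contrast, so the value is a description.

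The deepest fall was that of Xetro.K00110, with 21, 63 and 58 reads in Tet2/Tet3 replicates 1, 2 and 3, against 2624, 2000 and 1842 reads in control replicates 1, 2 and 3. In CPM these were 0.501, 1.56 and 1.53 in the Tet2/Tet3 libraries and 60.0, 44.7 and 47.2 in the controls. It kept 1.00%, 3.71% and 3.44% of its control level, so pair 1, the weakest for most members, was its deepest. The second deepest had 9.24, 6.37 and 7.77 CPM in the Tet2/Tet3 libraries, against 179.8, 164.5 and 143.8 CPM in the controls. The next had 6.02, 5.25 and 6.53 CPM in the Tet2/Tet3 libraries, against 113.8, 122.2 and 127.01 CPM in the controls. In this member the fall was even, with 5.37%, 4.38% and 5.22% left in pairs 1, 2 and 3.

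The 10 deepest and the 10 most abundant members had 0 in common. The 10 deepest kept 2.34 to 12.5% and averaged 1.197 to 14.05 CPM in the Tet2/Tet3 and 14.2 to 162.7 CPM in the control libraries. The 10 most abundant kept 17.8 to 42.2% and averaged 55.8 to 170.3 CPM in the Tet2/Tet3 and 234.7 to 523.9 CPM in the control libraries. The groups did not overlap in any of these 20, a gap that the rule largely fixes and that 27.5% of all identifiers at 10 CPM also had, with the Tet2/Tet3 libraries lower. In all 10 of the deepest, and in 7 of the 10 most abundant, the highest Tet2/Tet3 library lay at or under 0.5 times the lowest control. With 0.1 CPM added, 113 of the 8571 identifiers at 10 CPM met this limit, all of them members by the rule.

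**Figure D2:**
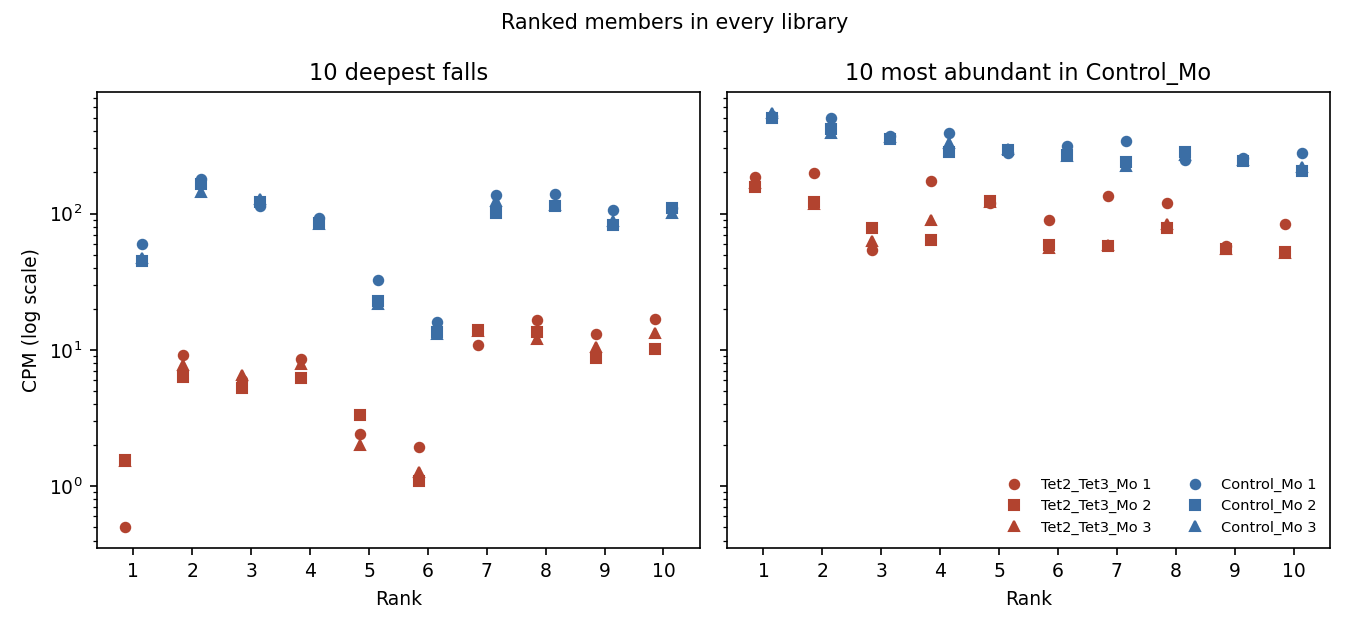
CPM (log axis) in every library for the 10 members with the deepest fall (left, rank 1 is Xetro.K00110) and the 10 most abundant in Control_Mo (right, rank 1 is Xetro.D00259). Red symbols are Tet2_Tet3_Mo and blue Control_Mo libraries, with a symbol shape for each replicate number, and all red symbols of a member lie below its blue ones.

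Depth of the fall changed little with abundance among the members. Those of 10 to 20, 20 to 50, 50 to 100, 100 to 200 and at least 200 CPM in the controls kept medians of 37.2%, 32.7%, 32.4%, 32.0% and 31.4%. The classes held 30, 64, 46, 39 and 12 members. These were 2.23%, 2.87%, 2.22%, 2.1% and 1.13% of the identifiers of each class, so the class of at least 200 CPM had the smallest share. Across the 191 members, the log2 control level and the log2 level left correlated at r = -0.12. Members are not independent replicates, the control level enters both measures, and no p is given. The order of the members by abundance was largely kept in the Tet2/Tet3 libraries, with a Spearman rho of 0.89 between the mean levels of the groups. The rule caps the ratio of every member, which favours a kept order. No rho was computed for all identifiers at 10 CPM, so nothing is read from it.

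The fall was shallower in pair 1 than in the other pairs. The median level left was 39.0% in pair 1 (quartiles 29.1% and 44.0%), 29.4% in pair 2 (22.8% and 37.8%) and 30.6% in pair 3 (23.6% and 37.98%). Pair 1 was the weakest pair for 131 members, pair 2 for 34 and pair 3 for 26. Pair 2 was the deepest for 100 members, pair 3 for 67 and pair 1 for 24. All 8571 identifiers at 10 CPM kept medians of 95.5%, 91.3% and 91.7% in pairs 1, 2 and 3. Pair 1 thus had the highest median level left among them too. Their weakest and deepest pairs were not counted, so the members' counts have no background. In 66 members the level left in pair 1 was at least 1.2 times that of both other pairs, and in 11 members it was lower than both by that factor. The 4 members that kept under 10% had medians of 5.28%, 4.15% and 5.34% in pairs 1, 2 and 3, so pair 1 lay above pair 2 but not above pair 3. With 1 library of each group in a pair, a difference between pairs cannot be tested.

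**Figure D3:**
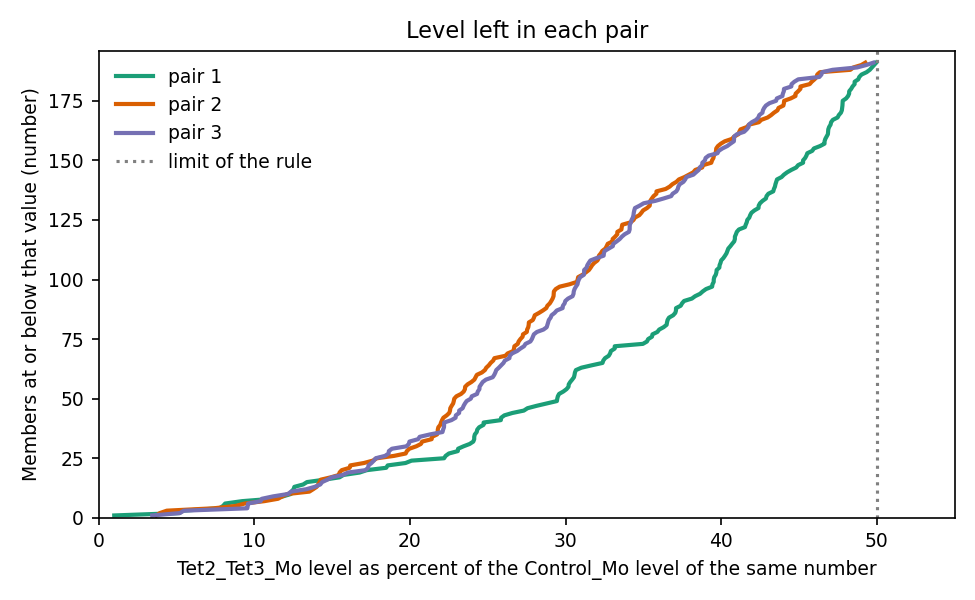
Number of members (vertical axis) whose Tet2_Tet3_Mo level was at or below a given percent of the Control_Mo level of the same replicate number (horizontal axis), as a line for each pair. The dotted line is the limit of the rule. Pairs 2 and 3 run together with medians of 29.4% and 30.6%, and pair 1 lies to the right with a median of 39.0%.

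The rule held the ratio of a member to at most 0.5 in each pair, so identifiers with a higher ratio in any pair are absent. Within this cap, a member's highest level left was a median of 1.3 times its lowest. In 66 members it stayed within 1.2 times, and in 5 it differed by 2 times or more. This range was not computed for all identifiers at 10 CPM, so nothing is read from it. Across members the log2 ratios of pair 1 correlated with those of pair 2 at r = 0.83 and with those of pair 3 at r = 0.87, and those of pairs 2 and 3 correlated at r = 0.94. All 191 points share a common limit and library scaling, and genes are not replicates, so these values are descriptions.

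Pairs that took no part in the choice are a check on the fall that the choice does not fix. The rule was applied to each 2 of the 3 pairs, with the control level taken from those pairs alone, and the ratio was read in the pair left out. Chosen on pairs 1 and 3, 204 identifiers were found, and 192 (94.1%) were also at or under 0.5 in pair 2, where 5.75% of all identifiers at that control level were. Chosen on pairs 1 and 2, 204 were found, and 193 (94.6%) were at or under 0.5 in pair 3, against a background of 4.74%. Chosen on pairs 2 and 3, 345 were found, and 189 (54.8%) were at or under 0.5 in pair 1, against a background of 2.5%. The same direction was shared by all of them, with the left-out Tet2/Tet3 library below its control for 345 of 345, 204 of 204 and 204 of 204 identifiers in pairs 1, 2 and 3. The background of that direction was 59.1%, 63% and 63.5%.

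In the left-out pair the median level left was 47.8% in pair 1, 31.2% in pair 2 and 31.2% in pair 3. All identifiers at that control level kept medians of 95.7%, 91.2% and 91.7%. The limit in pair 1 was thus what kept most near misses out, since 156 of the 345 identifiers chosen on pairs 2 and 3 failed there, with a median of 57.6% left. Pair 2 turned away 12 and pair 3 turned away 11. Of those 11, 4 kept over 75% in pair 3, the highest 96.9%. The 3 pairs may share embryo handling and processing, about which the labels say nothing, so agreement between them measures only the spread between these libraries.

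**Figure D4:**
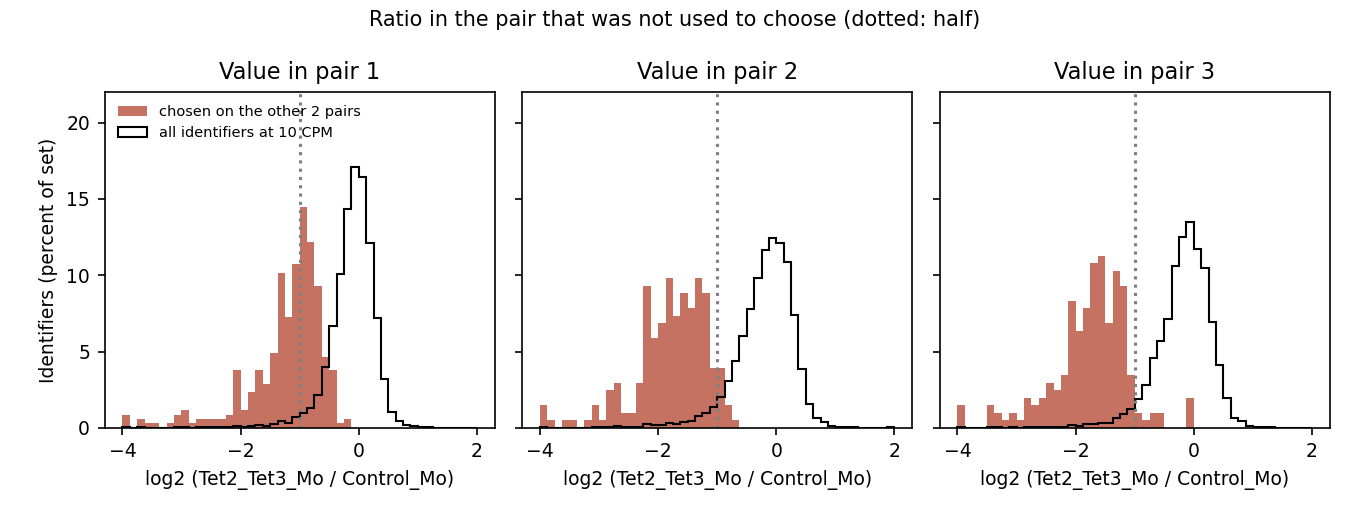
Distribution of the log2 ratio of Tet2_Tet3_Mo to Control_Mo in 1 pair (horizontal axis; values under -4 or over 2 are drawn at the edge), as a percent of the set (vertical axis), for identifiers chosen by the rule on the other 2 pairs (filled) and all 8571 identifiers at 10 CPM (line). The dotted line is a ratio of 0.5. In pairs 2 and 3 94.1% and 94.6% of the chosen identifiers lie at or left of it, and in pair 1 54.8%.

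In both groups, most members were lower in replicate 2 than in replicate 1. In the controls, replicate 2 lay below replicate 1 in 152 of 191 members (79.6%), against a background of 52.1% among all identifiers at 10 CPM. The median member had 0.833 times the control replicate 1 level in control replicate 2, and the median identifier 0.989 times. Control replicate 3 lay below control replicate 1 in 137 members (71.7%), against a background of 48.6%. In the Tet2/Tet3 libraries, replicate 2 lay below replicate 1 in 160 members (83.8%), against a background of 57.2%, with a median of 0.692 times. Replicate 1 was the highest library of both groups for 124 members, or 64.9%, against a background of 35.5%. Replicate 2 was the lowest of both for 100 members, or 52.4%, against a background of 31.6%.

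The ratio of a pair cancels what its libraries share, but a member had to pass the limit in each pair. This favours a high control and a low Tet2/Tet3 library in every pair alike. Apart from leaving out the 100 most abundant, the control level of replicate 1 took no part in choosing the 345 identifiers on pairs 2 and 3 alone, though 188 of them are also members, so the sets are not independent. Among the 345, control replicate 2 lay below control replicate 1 in 281 (81.4%), with a median of 0.819 times. For all identifiers at 10 CPM these values were 52.1% and 0.989 times. That background averages all 3 controls, while the 345 reached the level over control replicates 2 and 3 alone. Control replicate 2 thus took part in the choice. The Tet2/Tet3 libraries of the 345 are not compared, since the choice favoured low Tet2/Tet3 replicates 2 and 3. The part of the choice in the difference between replicate numbers was not tested.

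A test of the replicate number itself, with the groups allowed for, called 114 of 191 members (59.7%; edgeR quasi-likelihood test with 2 degrees of freedom, adjusted p under 0.05 over all identifiers tested). The background was 46.3% of all 13221 identifiers tested and 50.9% of the 8571 at 10 CPM, so the members' share was near the background. Their directions were uneven. Of the 114, 101 had a fitted level lower in replicate 2 than in replicate 1 (52.9% of the members), against a background of 25.3%. In 13 the fitted level was higher. This count by direction was chosen after seeing the data. The fit includes the libraries that chose the members, and the part of that choice in the count was not tested. The test takes all replicate numbers jointly, so the difference between replicates 2 and 1 was not tested alone. The fitted log2 difference of replicate 2 from replicate 1 had a median of -0.36 over the members and 0.00 over the identifiers at 10 CPM. What the replicate numbers share is not stated in the labels, and its part in the fall was not tested.

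**Figure D5:**
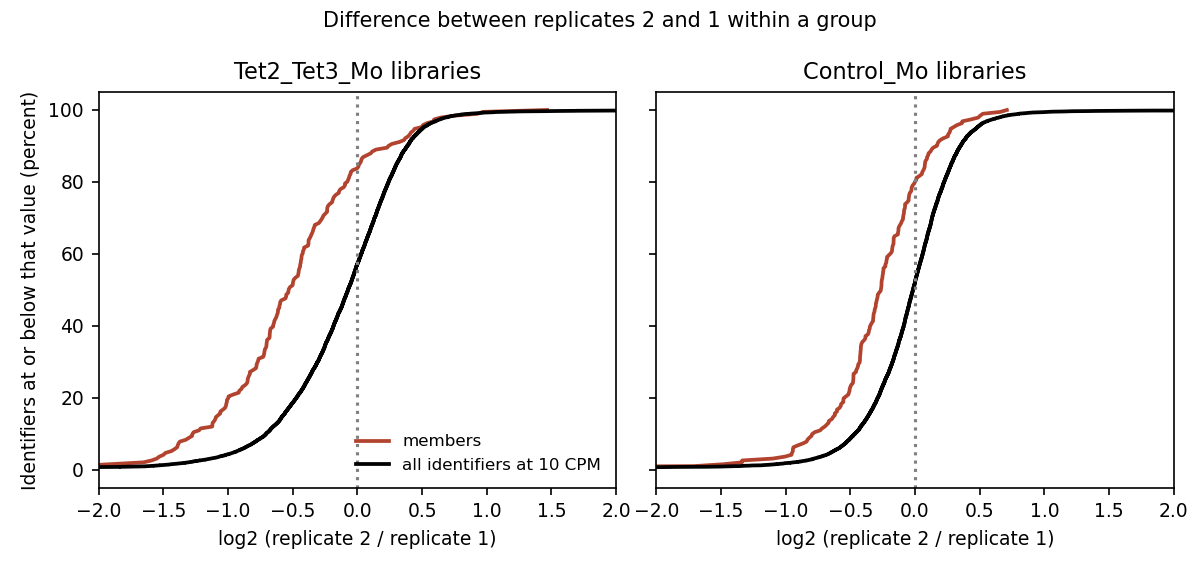
Cumulative percent of identifiers (vertical axis) by the log2 ratio of replicate 2 to replicate 1 within the Tet2_Tet3_Mo libraries (left) and the Control_Mo libraries (right), for the 191 members (red) and all 8571 identifiers at 10 CPM (black). At 0 (dotted) the members reach 83.8% and 79.6%, and all identifiers 57.2% and 52.1%.

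The spread between libraries of 1 group was larger for members than for all identifiers at 10 CPM. The median coefficient of variation was 22.99% in the Tet2/Tet3 and 12% in the control libraries for members. For all such identifiers it was 11.7% in the Tet2/Tet3 and 9.18% in the control libraries. The sets share only the limit on the control level. Members were chosen to be low in the Tet2/Tet3 libraries, where their mean levels had a median of 14.8 CPM. The Tet2/Tet3 spreads are therefore not compared at like levels. In most members the groups still stood apart, as every Tet2/Tet3 library lay below every control in 187 of 191. The background was 27.5% of the identifiers at 10 CPM, and the rule makes such a gap likely, so nothing is read from it. In 113 members the highest Tet2/Tet3 library was at most 0.5 times the lowest control. With 0.1 CPM added, 113 of the 8571 identifiers at 10 CPM met this limit. All were members, as the rule fixes, so nothing is read from this either.

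In 4 members the groups overlapped, while the Tet2/Tet3 library was the lower one in each pair, as the rule requires. The member with the widest control spread, picked after its values were seen, had 14.8, 0.917 and 7.35 CPM in Tet2/Tet3 replicates 1, 2 and 3, against 80.3, 3.59 and 24.0 CPM in control replicates 1, 2 and 3. Its control replicate 1 was 22.3 times its control replicate 2, yet it kept 18.5%, 27.5% and 30.9% in the 3 pairs. Another had 120.7, 31.9 and 32.3 CPM in Tet2/Tet3 replicates 1, 2 and 3, against 274.3, 98.1 and 116.4 CPM in control replicates 1, 2 and 3. Within each pair its Tet2/Tet3 library was the lower one, while Tet2/Tet3 replicate 1 lay above control replicates 2 and 3.

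Which members passed a test between the groups that ignores the pairs went with these spreads. With group alone, edgeR called 175 of the 191 members lower at an adjusted p under 0.05, against a background of 5.48% of the 13221 identifiers tested. With the replicate number as a block it called 191, against a background of 23.8%. The rule used this contrast, so the counts describe the members and support nothing. The 16 members called only with the block kept 18.5 to 49.3% in the 3 pairs. Their highest control library was a median of 1.93 times their lowest, against 1.24 times in the other 175. The test on group alone weighs the fall against the spread within groups, so nothing is read from this difference. In 15 of the 16, replicate 1 was highest in both groups, against 62.3% of the other 175 and a background of 35.5%. Being called only with the block favours such a pattern, so nothing is read from it. Leaving out 1 library moved the calls over all identifiers and the members' count with them. Without Tet2/Tet3 replicate 1, 2 or 3, group alone called 188, 131 or 70 members, against backgrounds of 9.86%, 1.8% and 0.627%. Without control replicate 1, 2 or 3, it called 118, 112 or 75, against backgrounds of 1.71%, 1.31% and 0.674%.

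The size of the fall depends on how libraries are scaled. With the library total, the median log2 ratio of all identifiers at 10 CPM was -0.07, -0.13 and -0.13 in pairs 1, 2 and 3. With TMM factors (trimmed mean of M values), which centre the bulk of the genes, it was 0.04, 0.02 and 0.02. The members' median level left was 42.02%, 32.7% and 33.7% in pairs 1, 2 and 3 on that scale, and 145 of the 191 still met the rule. In the edgeR fit with TMM factors the members' log2 fold changes had a median of -1.45 (quartiles -1.89 and -1.22), against -0.01 for all 13221 identifiers tested. They ranged from -5.27 to -0.96.

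The identifiers consist of a letter from A to K and a number, whose meaning the files do not give. Members occurred under all 11 letters, at 1.52% (letter G) to 3.93% (letter K) of the identifiers at 10 CPM. The letters K and A had 31 members each, out of 789 and 1298 such identifiers. Of 3719 pairs of identifiers at 10 CPM with consecutive numbers under the same letter, 4 consisted of members. One joined the second deepest member, which kept 4.81%, to a member that kept 31.6%, so a shared number neighbourhood did not mean a shared depth there. In another, the members kept 18.4% and 18.6%, and both had replicate 1 highest and replicate 2 lowest in both groups. The 158 identifiers at 10 CPM that stood next to a member by number, and were no members, kept a median of 93.1%. Of these, 46.2% were lower in all 3 pairs, against 50.4% of all identifiers at 10 CPM.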

How the data were processed

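The 6 deposited files hold whole-number read counts per gene identifier, 1 library per file, with 37973110 to 44792849 counts. Among the tools in the submitters' processing notes, which give no role or order, are STAR 2.5.4b and featureCounts 1.5.1. Build, annotation and strand setting are not given in the sources used, so overlapping and antisense genes may share reads. The members had medians of 479 to 729 reads in the Tet2/Tet3 and 1857 to 2520 reads in the control libraries. Columns of no sample numbered 0.

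Groups and replicate numbers were taken from the titles. The members and the tests were chosen with earlier results of these data known. CPM used the column totals. Groups were compared with edgeR 4.0.16 under R 4.3.3, using filterByExpr (minimum count 10, 13221 identifiers kept), TMM factors and quasi-likelihood F-tests over all 6 libraries, on group alone, with Benjamini-Hochberg adjustment and a threshold of 0.05. Standard errors were derived from the F statistic. Replicate number was tested in a fit with group as a term. DESeq2 1.42.0 was an alternative. The edgeR procedure was tested on simulated counts, with a dispersion close to that of the fit with the replicate block. Far fewer identifiers differed between replicate numbers there than in the real data. The simulation therefore does not show how the fit on group alone behaves under the real replicate differences.

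Deviations from the group means of same-numbered libraries correlated across 11527 identifiers at 0.90, 0.91 and 0.80 for numbers 1, 2 and 3. Across the members alone these correlations were lower, at 0.71, 0.77 and 0.59. The rule for the members sets same-numbered libraries as pairs, and no correlation of differently numbered libraries is given. The edgeR comparison on group alone ignores the pairs. Its median standard error over the members was 0.19, against 0.09 with the replicate block. No label states what joins them.

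The rule for named genes asked for the 10 deepest and the 10 most abundant members. As the identifiers carry no names, these are described by rank, and 1 identifier of each is printed. Levels of tet2 and tet3 were not analysed here.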

Additional observations from a re-analysis of the deposited data

How the results depend on the processing

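Membership moved most with the limits and with pair 1. Ratio limits of 0.4 and 0.25 left 96 and 33 members, and asking every Tet2/Tet3 library to be at most 0.5 times every control left 113. The rule over 2 pairs gave 204 to 345 identifiers, the highest without replicate 1. TMM and RLE factors gave 145 and 146, all of them among the 191, and other pseudocounts and control levels stayed within 1.5 times. At a ratio limit of 0.4 the members held 0.208% of Tet2/Tet3 and 0.833% of control counts. With TMM factors 60.1% of the identifiers chosen on pairs 2 and 3 met the limit in pair 1, against a background of 1.89%. With a pseudocount of 1 CPM 97.8% of those chosen on pairs 1 and 2 met it in pair 3, against a background of 4.33%. Leaving out 1 library gave 70 to 188 members called lower, while 0.627% to 9.86% of all tested identifiers were, and a median log2 fold change of -1.68 to -1.36, the lowest without Tet2/Tet3 replicate 1. With the replicate block, 191 were called, against a background of 23.8%, with a median log2 fold change of -1.47. No call made without the block was lost. The rule used the same contrast within pairs, so nothing is read from this count. Members called by the joint replicate test and fitted lower in replicate 2 than in replicate 1 numbered 90 to 111 over 11 alternatives. The background was 20.6% to 30% of the identifiers at 10 CPM, and this count was chosen after seeing the data. The causes of these shifts were not tested. In all, 84 of 96 alternative values counted as unchanged, 12 moved and 0 reversed. Unchanged did not always mean close, since any count within 1.5 times the reported one passed. The 118 members called lower without control replicate 1 (background 1.71%), and the 131 without Tet2/Tet3 replicate 2 (background 1.8%), passed against 175 (background 5.48%). For Xetro.K00110, log2 fold changes of -4.88 (without Tet2/Tet3 replicate 1) and -5.53 (without Tet2/Tet3 replicate 2) passed against -5.27. Depth limits the lowest levels most, such as the 21 reads of the deepest member in Tet2/Tet3 replicate 1.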
